A study of Rattus norvegicus with 372 samples.

Results

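The genes of fatty acid synthesis are described here in primary rat hepatocytes exposed to 14 chemicals for 24 h. The list holds 10 genes, Srebf1, Thrsp, Acly, Me1, Acaca, Acacb, Fasn, Elovl6, Scd and Pnpla3, which were looked up by symbol among the probe names, ignoring case. The whole transcriptome (WT) assay held 9 of the 10, on 10 of its 22253 probes, out of 20946 genes in all. Pnpla3, a hydrolase of the lipid droplet surface, matched no WT probe name and was not analysed here. All 9 measured genes passed the filter on low counts, as did 10191 genes in all. The smaller S1500+ (ST) assay of the same lysates, used as a check, held 8 of the 10, of which 7 passed.

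Hepatocytes turn surplus carbohydrate into fatty acids. ATP citrate lyase (Acly) splits citrate to give cytosolic acetyl-CoA, acetyl-CoA carboxylase (Acaca and Acacb) makes malonyl-CoA from it, and fatty acid synthase (Fasn) builds palmitate from malonyl-CoA, using NADPH that malic enzyme (Me1) helps to supply. Elovl6 lengthens palmitate and stearoyl-CoA desaturase (Scd) introduces a double bond. Many of these genes are known targets of SREBP-1, the transcription factor that Srebf1 codes for, and of the oxysterol receptor LXR. Several are known to respond to PPARα agonists in rodent liver. Thrsp codes for a small protein that is abundant in tissues that make fat.

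The hepatocytes came from male Wistar rats and were cultured between collagen layers, in a medium with insulin, dexamethasone and EGF that all groups shared. Each of the 28 treatments, 14 chemicals at a low and a high concentration in 0.5% DMSO, had 3 wells in batch 1 and 3 wells in batch 2. Vehicle wells with 0.5% DMSO numbered 3 in batch 1 and 6 in batch 2, as did wells with culture medium alone. Each batch was cells of 1 rat, and its libraries were made and sequenced separately, so rat, library preparation and sequencing cannot be told apart. The low and high concentrations were 400 and 10000 µM for acetaminophen, caffeine, isoniazid and valproic acid, 18 and 450 µM for chloramphenicol, 16 and 400 µM for diclofenac, 0.08 and 2 µM for doxorubicin, and 12 and 300 µM for indomethacin. They were 0.6 and 15 µM for ketoconazole, 80 and 2000 µM for naproxen, 160 and 4000 µM for ranitidine, 2.4 and 60 µM for simvastatin, 4 and 100 µM for sulfasalazine, and 8 and 200 µM for WY14643. Wells of a batch are technical replicates, so the p-values measure mainly the spread between wells, and values of each batch are given beside them.

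In TempO-Seq, pairs of detector oligos are ligated on their transcript and the ligated product is sequenced, so a count compares a gene between wells and not genes with each other. WT wells held 2289425 to 8975207 reads, with a median of 6210462 in batch 1 and 7220136 in batch 2. Levels are in CPM, the counts scaled to the same read total in every well. Differences are log2 fold changes against vehicle (L2FC) with standard errors (SE) from the quasi-likelihood test of edgeR, and a gene was called at a Benjamini-Hochberg adjusted p under 0.05. The summed level of 8 hepatocyte markers was 36516 to 44012 CPM in vehicle wells, 26946 to 52042 CPM at low and 6884 to 44363 CPM at high concentrations. Kupffer cell and leukocyte markers summed to 19.4 to 40.1 CPM in vehicle wells and 3.60 to 68.3 CPM at high concentrations. Cholangiocyte markers summed to at most 74.2 CPM, endothelial ones to at most 5.22 CPM and stellate cell ones to at most 3.65 CPM in any well. In lysates, fewer cells of a type and less RNA per cell cannot be told apart.

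RefSeq (build GRCr8) gave promoter windows, from 250 bases before to 50 bases after a start of transcription, for 7 of the 10 genes, with 2 starts for Srebf1. Fasn, Acaca and Elovl6 had no entry in the set of windows used here. Both strands were searched for the sterol regulatory element TCACNCCAC, the E-box CACGTG and the CCAAT box CCAAT. No window of the 8 held the exact letters TCACNCCAC or CACGTG, which 1.12% and 6.42% of all 33469 windows held. Other spellings of these elements were not searched for. The CCAAT box, the letters that NF-Y binds, was in 6 of the 8 windows, and in 37.5% of all windows. As neither of the others was matched in these windows, none overlapped. Shown 5′ to 3′ are the windows of the transcription factor (Srebf1), of Acly, and of Scd, the gene called in the most treatments, with the CCAAT box or its reverse complement in capitals.
Srebf1, chr10:45518961-45519260, minus strand: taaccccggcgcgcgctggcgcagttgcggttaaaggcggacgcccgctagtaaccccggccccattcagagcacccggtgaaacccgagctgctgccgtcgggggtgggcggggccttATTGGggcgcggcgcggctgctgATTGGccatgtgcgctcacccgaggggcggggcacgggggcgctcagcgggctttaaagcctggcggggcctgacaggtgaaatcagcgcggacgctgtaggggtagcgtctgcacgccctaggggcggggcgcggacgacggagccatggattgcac
Srebf1, chr10:45529115-45529414, minus strand: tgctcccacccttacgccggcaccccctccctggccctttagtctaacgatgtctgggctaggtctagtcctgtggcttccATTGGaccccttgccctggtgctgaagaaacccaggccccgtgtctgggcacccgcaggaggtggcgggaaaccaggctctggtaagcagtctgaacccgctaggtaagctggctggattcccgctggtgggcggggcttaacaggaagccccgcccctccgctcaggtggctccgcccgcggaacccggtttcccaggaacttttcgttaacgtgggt
Acly, chr10:85963582-85963881, minus strand: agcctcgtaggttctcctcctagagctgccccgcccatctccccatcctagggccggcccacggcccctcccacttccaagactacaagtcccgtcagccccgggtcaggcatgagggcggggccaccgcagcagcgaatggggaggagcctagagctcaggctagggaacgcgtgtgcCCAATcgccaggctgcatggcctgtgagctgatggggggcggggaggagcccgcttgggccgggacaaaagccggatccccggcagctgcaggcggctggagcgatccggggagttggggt
Scd, chr1:253231682-253231981, minus strand: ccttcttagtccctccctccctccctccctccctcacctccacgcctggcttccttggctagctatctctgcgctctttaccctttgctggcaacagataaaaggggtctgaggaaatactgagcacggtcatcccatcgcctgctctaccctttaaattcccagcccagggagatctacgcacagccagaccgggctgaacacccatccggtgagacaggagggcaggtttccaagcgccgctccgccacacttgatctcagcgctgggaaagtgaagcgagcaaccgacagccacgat
The box of Acly lay 71 bases before the start and that of Acacb 72 bases before it, while the Scd and Me1 windows held none. A match is a run of letters only. Its absence from so short a window says nothing about elements spelled otherwise in the window or about binding elsewhere.

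At the 14 high concentrations, 50 of 126 pairs of gene and treatment were called higher than vehicle and 32 lower. These were 39.7% and 25.4% of the pairs, where 25.4% and 25.5% of the pairs over all genes tested were called. At the 14 low concentrations 32 of 126 pairs were called higher (25.4%) and 1 was called lower (0.794%), beside 4.9% and 4.5% over all genes. In this fit over both rats the share of lower calls at high concentrations was thus that of all genes. The share of higher calls lay above that of all genes at both levels. The median L2FC of the 9 genes was 0.17 at high and 0.15 at low concentrations, where that of all genes was 0.0026 and 0.0011. The balance at high concentrations differed between the batches. In batch 1 alone 40 pairs were higher and 41 lower, where 17.8% and 17.7% of pairs over all genes were. In batch 2 alone 56 were higher and 24 lower, where 24.3% and 22.7% over all genes were. All treatments were compared with the same vehicle wells, so the counts are not independent. With the wells of each rat added to 1 profile per treatment, the counts were 37 higher and 22 lower at high and 12 higher and 1 lower at low concentrations, and 7 of these 12 were with WY14643. Over all genes 18.5% of pairs were then called higher and 18.3% lower at high concentrations, and 2.14% higher and 1.88% lower at low ones.

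**Figure D1:**
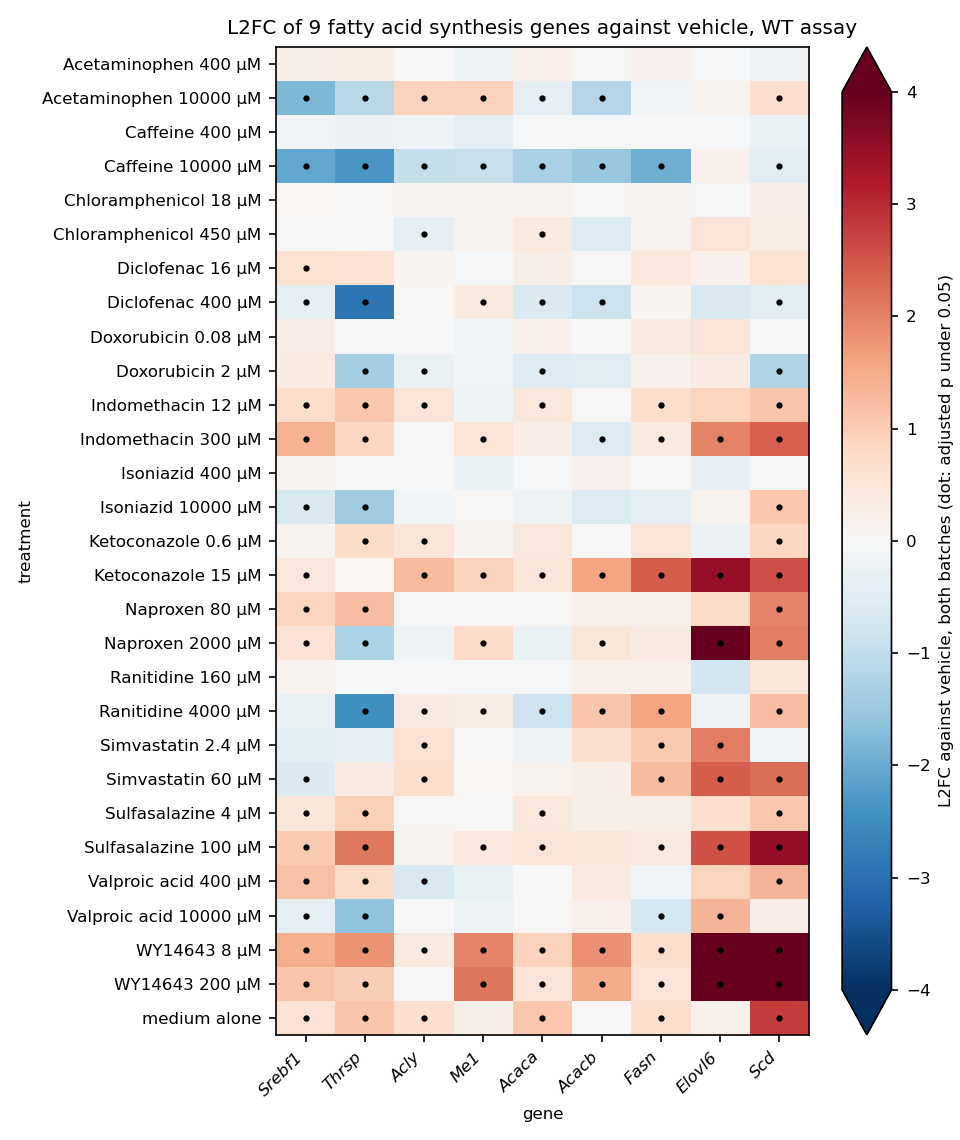
L2FC against vehicle of the 9 measured genes (columns) for 28 treatments and medium alone (rows), WT assay, both batches fitted together. Colour is cut off at -4 and 4, and dots mark an adjusted p under 0.05. The row of WY14643 at 8 µM has a dot for all 9 genes, all higher, and the row of caffeine at 10000 µM has 8, all lower.

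Srebf1, the source of the transcription factor SREBP-1, was called in 17 of the 28 treatments, higher in 11 and lower in 6. Its L2FC was highest with WY14643 at 8 µM. The wells of batch 1 held 39.7, 46.8 and 47.6 CPM, where vehicle wells held 22.3 to 27.3 CPM. The wells of batch 2 held 35.5, 42.6 and 44.1 CPM, where vehicle wells held 13.5 to 19.3 CPM. Treated and vehicle wells did not overlap in either batch, and L2FC was 1.44 ± 0.13 (SE, adjusted p = 2.96e-20). Its L2FC was lowest with caffeine at 10000 µM, where Srebf1 was at 1.92, 2.70 and 3.62 CPM in batch 1 and 4.57, 4.85 and 6.23 CPM in batch 2, below every vehicle well (L2FC -2.07 ± 0.16, SE, adjusted p = 8.02e-25). All 6 lower calls of Srebf1 were at high concentrations.

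Thrsp was called in 17 of the 28 treatments, higher in 9 and lower in 8, and its 8 lower calls were likewise all at high concentrations. Its L2FC was highest with sulfasalazine at 100 µM. Batch 1 wells held 336, 385 and 536 CPM, where vehicle was 97.3 to 120.3 CPM. Batch 2 wells held 290.0, 304 and 365 CPM, where vehicle was 61.5 to 90.8 CPM. L2FC was 2.11 ± 0.16 (SE, adjusted p = 6.42e-25), with 2.11 in batch 1 and 2.11 in batch 2. The lowest L2FC of any of the 9 genes was that of Thrsp with diclofenac at 400 µM, where it was at 9.03, 10.1 and 12.0 CPM in batch 1 and 9.92, 11.1 and 26.1 CPM in batch 2, below every vehicle well (L2FC -2.91 ± 0.20, SE, adjusted p = 1.39e-30). Thrsp also fell with ranitidine at 4000 µM (-2.47 ± 0.19, SE) and caffeine at 10000 µM (-2.33 ± 0.19, SE).

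Acly, the source of cytosolic acetyl-CoA, was called in 12 of the 28 treatments, higher in 8 and lower in 4. With ketoconazole at 15 µM its wells held 596, 612 and 629.7 CPM in batch 1, where vehicle was 323 to 354 CPM. In batch 2 they held 592, 595 and 596 CPM, where vehicle was 203 to 233 CPM. The batches thus stood apart in vehicle and lay close together with ketoconazole, and L2FC was 1.28 ± 0.093 (SE, adjusted p = 8.10e-27). With caffeine at 10000 µM Acly was at 109, 116 and 124 CPM in batch 1 and 104, 135 and 145 CPM in batch 2, below every vehicle well (L2FC -0.96 ± 0.10, SE, adjusted p = 5.11e-17). The 1 lower call at a low concentration was Acly with valproic acid at 400 µM (L2FC -0.62 ± 0.10, SE, adjusted p = 4.67e-08).

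Me1, the cytosolic malic enzyme, was called in 10 of the 28 treatments, higher in 9 and lower in 1. Its L2FC was highest with WY14643 at 200 µM. Batch 1 wells held 83.0, 88.8 and 91.0 CPM, where vehicle was 13.3 to 20.2 CPM. Batch 2 wells held 60.9, 63.3 and 64.2 CPM, where vehicle was 16.9 to 27.9 CPM. The groups did not overlap, and L2FC was 2.15 ± 0.12 (SE, adjusted p = 1.72e-37). The fall was with caffeine at 10000 µM, where Me1 was at 9.14, 12.4 and 13.3 CPM in batch 1 and 6.22, 8.39 and 9.92 CPM in batch 2 (L2FC -0.92 ± 0.14, SE, adjusted p = 2.80e-09). In batch 1 the highest of these wells was level, to 3 digits, with the lowest vehicle well.

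Acaca and Acacb code for acetyl-CoA carboxylases, of which the former serves fatty acid synthesis and the latter sits at the mitochondrion, where its malonyl-CoA holds back fatty acid import. Acaca was called in 12 of the 28 treatments, higher in 7 and lower in 5. Among the 28 treatments, media wells left out, its L2FC was highest with WY14643 at 8 µM, where Acaca was at 149.9, 158 and 183 CPM in batch 2, above vehicle at 63.1 to 99.7 CPM. In batch 1 it was at 102, 116 and 119.8 CPM and overlapped vehicle at 89.6 to 123 CPM. L2FC was 0.92 ± 0.13 (SE, adjusted p = 7.51e-10) over both rats, 0.50 in batch 1 and 1.23 in batch 2. With caffeine at 10000 µM it was at 31.4, 42.9 and 47.2 CPM in batch 1 and 21.1, 29.9 and 30.0 CPM in batch 2, below every vehicle well (L2FC -1.28 ± 0.15, SE, adjusted p = 1.12e-14).

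Acacb had few reads, with 2.14 to 3.15 CPM in the vehicle wells of batch 1 and 4.30 to 6.81 CPM in those of batch 2. It was called in 9 of the 28 treatments, higher in 5 and lower in 4. With WY14643 at 8 µM it was at 6.07, 7.56 and 9.20 CPM in batch 1 and 13.7, 18.5 and 18.7 CPM in batch 2, above every vehicle well of the batch (L2FC 1.83 ± 0.20, SE, adjusted p = 5.19e-15). It also rose with ketoconazole at 15 µM (1.57 ± 0.20, SE), WY14643 at 200 µM (1.49 ± 0.20, SE) and ranitidine at 4000 µM (1.09 ± 0.21, SE). With caffeine at 10000 µM it was at 0.190, 0.770 and 1.05 CPM in batch 1 and 1.14, 2.10 and 2.54 CPM in batch 2, below every vehicle well of the batch (L2FC -1.50 ± 0.27, SE, adjusted p = 3.21e-07).

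Fasn, which builds palmitate, was called in 11 of the 28 treatments, higher in 9 and lower in 2. Its L2FC was highest with ketoconazole at 15 µM. Batch 1 wells held 159, 177 and 181 CPM, where vehicle was 61.8 to 74.8 CPM. Batch 2 wells held 201, 208 and 248 CPM, where vehicle was 23.5 to 31.1 CPM. L2FC was 2.42 ± 0.16 (SE, adjusted p = 1.27e-30), with all 6 wells above every vehicle well. Fasn also rose with ranitidine at 4000 µM (1.57 ± 0.16, SE) and with simvastatin at 60 µM (1.26 ± 0.16, SE) and 2.4 µM (1.06 ± 0.16, SE). With caffeine at 10000 µM it was at 8.19, 8.28 and 8.57 CPM in batch 1 and 8.78, 10.4 and 10.9 CPM in batch 2, below every vehicle well (L2FC -1.94 ± 0.19, SE, adjusted p = 2.76e-18).

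Elovl6, the elongase of palmitate, had the highest L2FC of the 9 genes from a low control level, 1.79 to 2.55 CPM in the vehicle wells of batch 1 and 0.587 to 1.67 CPM in those of batch 2. It was called in 9 of the 28 treatments, higher in each. The filter used the mean over all wells, to which treated wells with high Elovl6 added. With WY14643 at 8 µM it was at 28.8, 33.5 and 53.1 CPM in batch 1 and 24.6, 39.7 and 58.4 CPM in batch 2. All 6 wells lay far above the vehicle wells, and L2FC was 5.06 ± 0.30 (SE, adjusted p = 1.29e-35), a 33.3-fold difference. The other 8 calls were with WY14643 at 200 µM (4.38 ± 0.30, SE), naproxen at 2000 µM (3.99 ± 0.30, SE), ketoconazole at 15 µM (3.48 ± 0.31, SE), sulfasalazine at 100 µM (2.56 ± 0.32, SE), simvastatin at 60 µM (2.43 ± 0.33, SE), simvastatin at 2.4 µM (2.06 ± 0.33, SE), indomethacin at 300 µM (1.99 ± 0.34, SE) and valproic acid at 10000 µM (1.37 ± 0.35, SE).

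Scd, which makes monounsaturated fatty acids, was called in 18 of the 28 treatments, more than any other of the 9 genes, higher in 15 and lower in 3. Its reads came nearly all from 1 of its 2 probes, with a mean of 379 counts per well, while the other was at 0 in 126 wells. With WY14643 at 8 µM batch 1 wells held 304, 311 and 439 CPM, where vehicle was 11.4 to 21.8 CPM. Batch 2 wells held 388, 403 and 420.0 CPM, where vehicle was 9.61 to 21.7 CPM. The groups stood far apart in both batches, and L2FC was 4.88 ± 0.19 (SE, adjusted p = 2.90e-58), a 29.5-fold difference. Scd also rose with WY14643 at 200 µM (4.00 ± 0.18, SE), sulfasalazine at 100 µM (3.51 ± 0.18, SE), ketoconazole at 15 µM (2.59 ± 0.18, SE) and indomethacin at 300 µM (2.39 ± 0.18, SE). Its L2FC was lowest with doxorubicin at 2 µM, where Scd was at 4.95, 7.53 and 8.54 CPM in batch 1 and 5.79, 6.12 and 7.09 CPM in batch 2, below every vehicle well (L2FC -1.21 ± 0.22, SE, adjusted p = 2.25e-06).

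**Figure D2:**
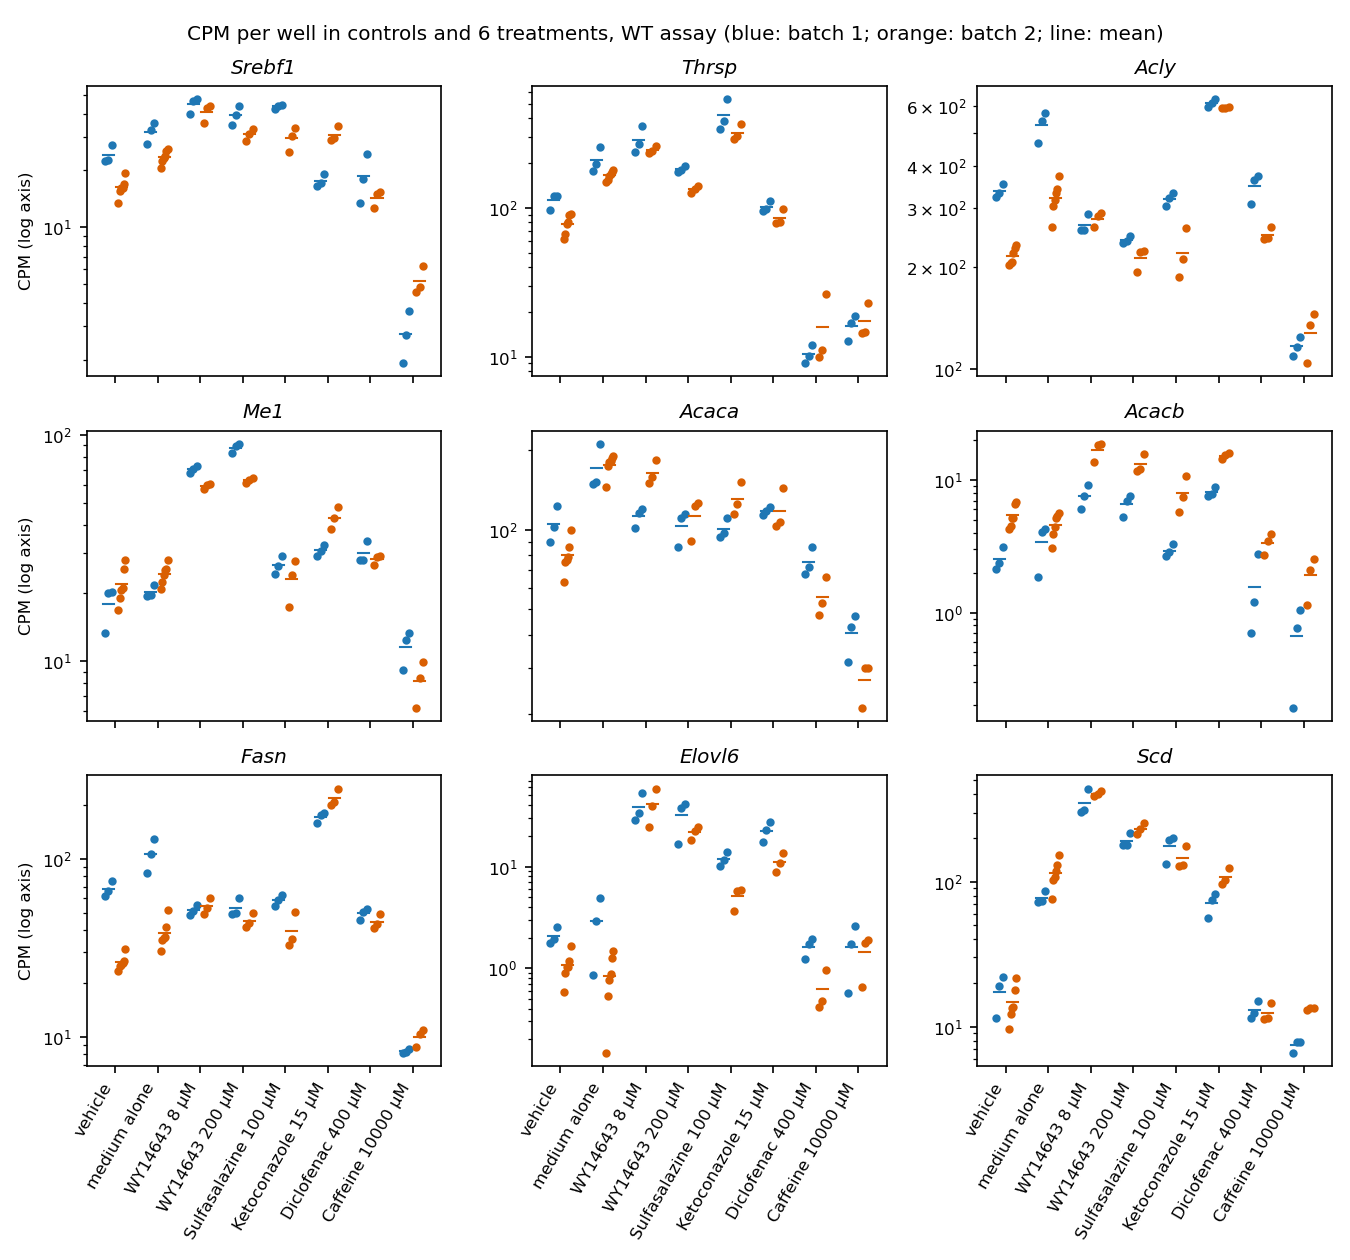
CPM of the 9 genes in single wells (points) for vehicle, medium alone and 6 treatments (x axis), with the mean of each batch as a line, on a log axis with a range of its own in each panel. Scd and Elovl6 with WY14643 lie far above the vehicle wells of both batches, and the vehicle wells of Fasn are at 61.8 to 74.8 CPM in batch 1 and 23.5 to 31.1 CPM in batch 2.

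Treatments that moved at least 5 of the 9 genes are described in turn. WY14643, a PPARα agonist, raised all 9 at 8 µM and 8 at 200 µM, where 28% and 26% of all genes were higher. Acly was not called at 200 µM (L2FC 0.029). The median L2FC of the 9 genes was 1.79 at 8 µM and 1.11 at 200 µM, where that of all genes was -0.015 and -0.0060. In batch 1 no vehicle well shared a plate with WY14643, ketoconazole, sulfasalazine, indomethacin, acetaminophen or chloramphenicol. In batch 2 alone, against vehicle wells of the same plate, 9 and 8 genes were called for WY14643, where 51.7% and 41.8% of all genes were called in either direction. With wells added per rat 7 and 7 were called, beside 41.9% and 37.3% of all genes. Acly (0.33, adjusted p = 0.147) and Fasn (0.60, adjusted p = 0.143) did not pass at 8 µM in that fit, nor did Fasn at 200 µM (0.42, adjusted p = 0.335). Acly at 8 µM was at 257, 257 and 288 CPM in batch 1, below vehicle at 323 to 354 CPM, while its L2FC, which also uses TMM factors, was 0.060 there and 0.57 in batch 2. With read totals alone it did not pass (0.077, adjusted p = 0.526). Fasn was called at both concentrations, but its L2FC was -0.0055 in batch 1 and 1.25 in batch 2 at 8 µM, and -0.019 and 0.95 at 200 µM.

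Ketoconazole, an azole antifungal known to block sterol demethylation, raised 8 of the 9 genes at 15 µM, where 25% of all genes were higher, and their median L2FC was 1.28. Thrsp was not called (L2FC 0.069). Srebf1 was called (0.45 ± 0.13, SE) with opposite signs in the batches, -0.36 in batch 1 and 1.01 in batch 2. Simvastatin, an inhibitor of HMG-CoA reductase, raised Acly, Fasn, Elovl6 and Scd at 60 µM and lowered Srebf1 (-0.56 ± 0.14, SE), where 11.4% of all genes were higher and 12.5% lower. Sulfasalazine, an anti-inflammatory drug, raised Srebf1, Thrsp, Me1, Acaca, Fasn, Elovl6 and Scd at 100 µM, where 21.3% of all genes were higher, and 4 genes were called with wells added per rat, beside 20.7% of all genes in either direction.

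Of the non-steroidal anti-inflammatory drugs, indomethacin at 12 µM raised Srebf1 (0.71 ± 0.13, SE), Thrsp (1.09 ± 0.16, SE), Acly (0.52 ± 0.094, SE), Acaca (0.45 ± 0.13, SE), Fasn (0.72 ± 0.16, SE) and Scd (1.10 ± 0.18, SE), where 3.53% of all genes were higher. With wells added per rat 0 of the 9 genes were called by edgeR, where 5 had an unadjusted p under 0.05, and 0.0196% of all genes were called. At 300 µM it raised Srebf1, Thrsp, Me1, Fasn, Elovl6 and Scd, where 27.1% of all genes were higher, and lowered Acacb (-0.54 ± 0.24, SE), where 27.6% were lower. Fasn had opposite signs in the batches there, -0.40 in batch 1 and 1.01 in batch 2. Naproxen at 2000 µM raised Srebf1, Me1, Acacb, Elovl6 and Scd, where 27.6% of all genes were higher, and lowered Thrsp (-1.26 ± 0.18, SE), where 26.2% were lower. Diclofenac at 400 µM raised Me1 (0.39 ± 0.13, SE) and lowered Srebf1, Thrsp, Acaca, Acacb and Scd, where 36% of all genes were higher and 35.8% lower. Only 3 of the 9 genes were called with wells added per rat, and 3 in batch 2 against vehicle of the same plate, where 62.6% and 64.5% of all genes were called in either direction. In the ST assay of the same lysates the L2FC of Srebf1 (-0.025, adjusted p = 0.893), Acaca (-0.25, adjusted p = 0.141) and Scd, with its SCD1 probe added, (-0.060, adjusted p = 0.834) did not pass the threshold, and Acly, not called in WT (0.038), was called higher (0.27, adjusted p = 0.00945). The summed hepatocyte markers were at 6884 to 9323 CPM in the diclofenac wells, lower than with any other treatment, and their part in these values was not tested.

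Caffeine at 10000 µM lowered 8 of the 9 genes, where 31.6% of all genes were lower, and their median L2FC was -1.28 beside 0.046 over all genes. Elovl6 was not called (L2FC 0.21). Scd fell less (-0.44 ± 0.20, SE), with -1.03 in batch 1 and -0.045 in batch 2, and its sign turned in batch 2 against vehicle of the same plate. Acetaminophen at 10000 µM raised Acly (0.91 ± 0.094, SE), Me1 (0.91 ± 0.13, SE) and Scd (0.67 ± 0.19, SE), where 38.8% of all genes were higher. It lowered Srebf1 (-1.79 ± 0.16, SE), Thrsp (-1.11 ± 0.18, SE), Acaca (-0.38 ± 0.14, SE) and Acacb (-1.18 ± 0.27, SE), where 40.1% were lower. Ranitidine, a histamine receptor blocker, at 4000 µM raised Acly, Me1, Acacb, Fasn and Scd, where 32.3% of all genes were higher, and lowered Thrsp and Acaca, where 33.9% were lower. The summed hepatocyte markers were at 16067 to 22291 CPM with caffeine, 22759 to 35749 CPM with acetaminophen and 11761 to 17593 CPM with ranitidine, below every vehicle well, as they were in 12 of the 14 high concentrations and none of the low. They were at 19414 to 23154 CPM with ketoconazole at 15 µM and 19546 to 20757 CPM with naproxen at 2000 µM, where most of the 9 genes rose, at 22808 to 28551 CPM with indomethacin at 300 µM, and at 29748 to 34815 CPM with WY14643 at 200 µM. Kupffer cell and leukocyte markers were below every vehicle well with caffeine (5.38 to 13.7 CPM), indomethacin at 300 µM (8.68 to 17.0 CPM), valproic acid at 10000 µM (12.7 to 18.5 CPM) and doxorubicin at 2 µM (3.60 to 7.71 CPM). The part of either in these values was not tested.

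The other treatments moved fewer genes, and the share of all genes called in either direction follows each. Doxorubicin at 2 µM lowered Thrsp, Acly, Acaca and Scd (19.4%), with hepatocyte markers at 24860 to 30212 CPM. Sulfasalazine at 4 µM raised Srebf1, Thrsp, Acaca and Scd (17.4%). Valproic acid at 400 µM raised Srebf1, Thrsp and Scd and lowered Acly (29.1%). At 10000 µM it raised Elovl6 and lowered Srebf1, Thrsp and Fasn (66.7%). When counts were scaled by read totals alone, 7 of the 9 genes were called there, beside 70.0% of all genes. On that scale Srebf1 did not pass (-0.12, adjusted p = 0.464). The L2FC of Srebf1 was -0.80 in batch 1 and -0.047 (adjusted p = 0.759) in batch 2, where it turned its sign against vehicle of the same plate (0.068, adjusted p = 0.705). That of Fasn was -1.48 in batch 1 and -0.064 (adjusted p = 0.71) in batch 2. Isoniazid at 10000 µM raised Scd and lowered Srebf1 and Thrsp (34.7%). Naproxen at 80 µM raised Srebf1, Thrsp and Scd (16%), ketoconazole at 0.6 µM Thrsp, Acly and Scd (1.62%), and simvastatin at 2.4 µM Acly, Fasn and Elovl6 (2.4%). Chloramphenicol at 450 µM raised Acaca and lowered Acly (33.3%), and diclofenac at 16 µM raised Srebf1 (0.137%). With wells added per rat, none of the 9 genes was called for sulfasalazine at 4 µM, ketoconazole at 0.6 µM, chloramphenicol at 450 µM or diclofenac at 16 µM. In that fit 0.118%, 0%, 12.7% and 0% of all genes were called for them. An unadjusted p under 0.05 was found for 2, 4, 2 and 1 of the 9. The summed hepatocyte markers were also below every vehicle well with valproic acid at 10000 µM (15554 to 21978 CPM), isoniazid at 10000 µM (25051 to 30353 CPM) and chloramphenicol at 450 µM (22231 to 30533 CPM), and their part was not tested. For the low concentrations of acetaminophen, caffeine, chloramphenicol, doxorubicin, isoniazid and ranitidine, edgeR and DESeq2 each called 0 of the 54 pairs. Of all genes edgeR called between 0.0196% (isoniazid) and 1.38% (acetaminophen) for these treatments. In the fits over both rats 4 and 4 of the 54 pairs had an unadjusted p under 0.05, and their L2FC over all 54 ran from -0.75 to 0.50.

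Culture medium alone, whose labels name no DMSO, was compared with vehicle, which held 0.5% DMSO. In medium alone 6 of the 9 genes were higher and none lower, where 7.51% of all genes were higher. Scd stood farthest apart, at 72.7, 73.5 and 86.6 CPM in batch 1 and between 76.4 and 154 CPM (median 113) in batch 2. Every medium well lay above every vehicle well, and L2FC was 2.78 ± 0.17 (SE, adjusted p = 1.03e-32). Thrsp (1.10 ± 0.15, SE), Acaca (1.07 ± 0.12, SE), Fasn (0.69 ± 0.15, SE), Acly (0.68 ± 0.085, SE) and Srebf1 (0.57 ± 0.12, SE) were also called. L2FC was 0.23 for Me1, 0.19 for Elovl6 and 0.057 for Acacb, which were not. With wells added per rat Scd and Acaca were called, beside 0.442% of all genes in either direction. The Scd level of medium alone was below that of WY14643 at 8 µM in every well.

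The high and the low concentration of a chemical were also compared with each other, which leaves vehicle out, and 66 of 126 pairs of gene and chemical were called. The high concentration was above the low in 30 and below it in 36, where 20.1% and 20.7% of the pairs over all genes were. Thrsp was lower at the high concentration of 10 chemicals, most with diclofenac (-3.47 ± 0.21, SE), and higher at that of sulfasalazine (1.17 ± 0.18, SE) and simvastatin (0.74 ± 0.18, SE). Acaca was lower at the high concentration of 5 chemicals and higher at none. Elovl6 was higher at that of 4 chemicals, most with ketoconazole (3.73 ± 0.37, SE), and lower at none. Me1 was higher at that of 7 and lower at that of caffeine (-0.58 ± 0.15, SE). Srebf1 was lower at that of 6 and higher at that of 2, and Scd was higher at that of 7 and lower at that of 4.

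Some genes were called on opposite sides of vehicle at the concentrations of 1 chemical. With naproxen, Thrsp was higher at 80 µM (L2FC 1.22) and lower at 2000 µM (-1.26), and the difference (-2.48 ± 0.19, SE) was called. With valproic acid, Srebf1 was higher at 400 µM (1.17) and lower at 10000 µM (-0.39), and Thrsp was too (0.76 and -1.62). The lower value of Srebf1 came from batch 1, with -0.047 in batch 2, and the higher one of Thrsp did not pass with wells added per rat (0.76, adjusted p = 0.104). With diclofenac, Srebf1 was higher at 16 µM (0.61) and lower at 400 µM (-0.36), but neither passed in the ST assay (0.44, adjusted p = 0.199, and -0.025, adjusted p = 0.893) or with wells added per rat (0.57, adjusted p = 1, and -0.37, adjusted p = 0.218). WY14643 gave larger rises at the low concentration in Scd (high minus low -0.88 ± 0.18, SE, adjusted p = 3.47e-04), Thrsp (-0.81 ± 0.18, SE, adjusted p = 9.75e-04) and Acly (-0.33 ± 0.10, SE, adjusted p = 0.0406), where 3.22% of all genes were lower at the high concentration. For the other 6 genes the difference did not pass the threshold and ran from -0.68 (Elovl6) to 0.17 (Me1).

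**Figure D3:**
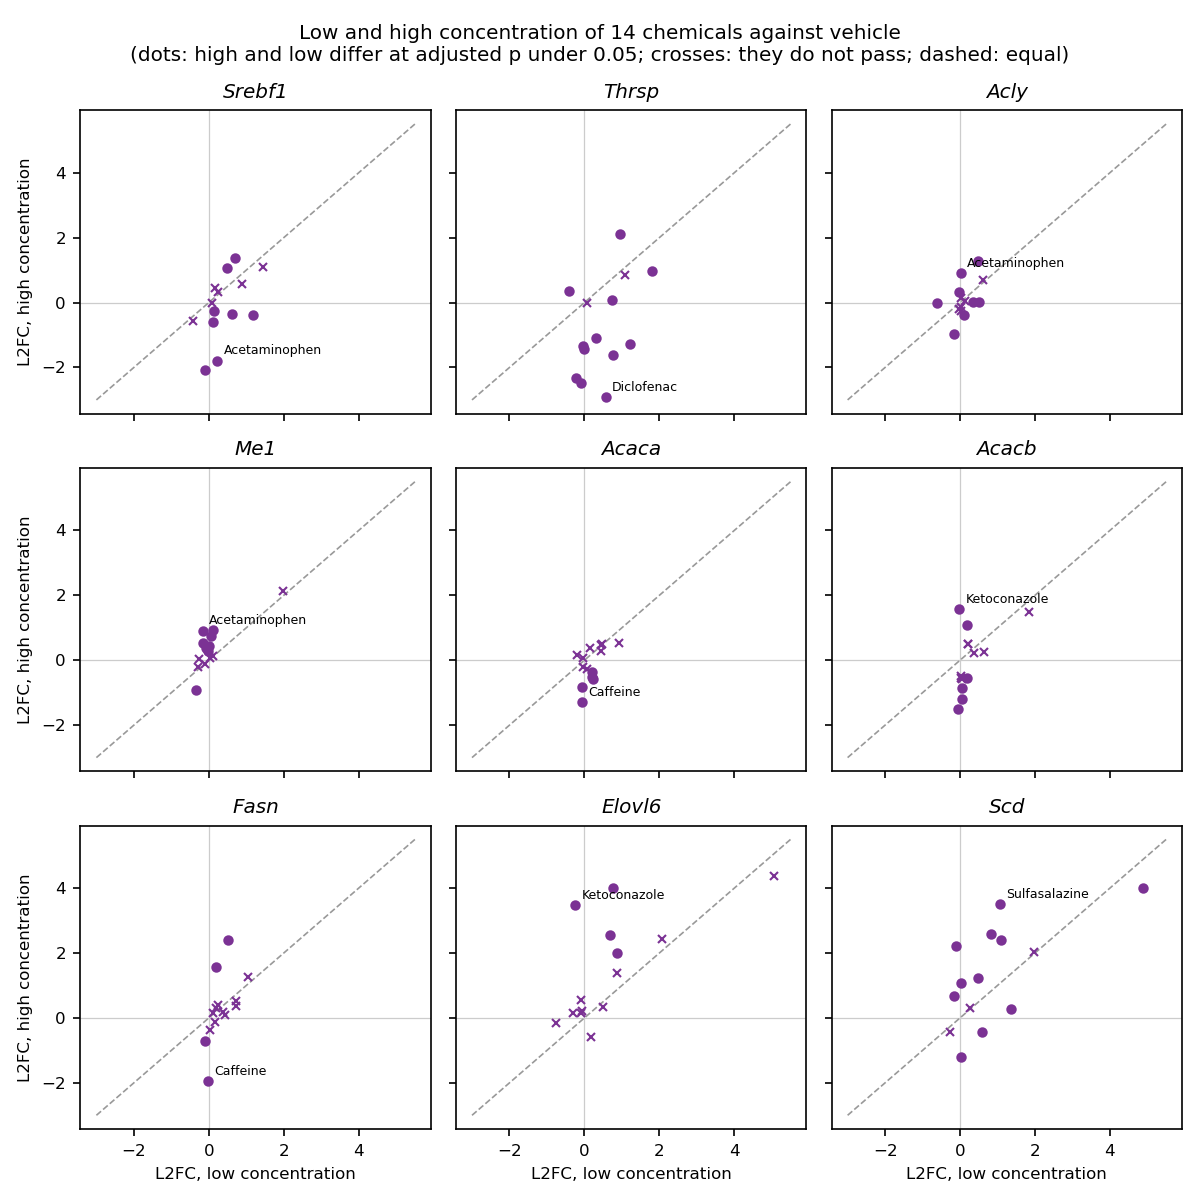
L2FC at the low (x axis) and the high concentration (y axis), 1 point per chemical, for each of the 9 genes. Dots are chemicals whose concentrations differed at an adjusted p under 0.05, crosses those that did not pass, and the dashed line marks equal values. For Thrsp 10 dots lie below the line and 2 above it, and for Elovl6 all 4 lie above it.

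The difference between the batches was tested, as an interaction of batch and treatment, for all 252 pairs of gene and treatment. It passed the threshold in 39 (15.5%), where 2.44% of the pairs over all genes did, and in 35 of these L2FC was higher in batch 2. Fasn made up 18 of them, Acly 9, Srebf1 6, Me1 3, Thrsp 2 and Scd 1. The signs were opposite in 16 of them, 4 of which were called over both rats, namely Srebf1 with ketoconazole at 15 µM and Fasn with indomethacin at 300 µM and both concentrations of WY14643. With ketoconazole at 15 µM the L2FC of Fasn was 1.44 in batch 1 and 3.14 in batch 2 (difference 1.69 ± 0.18, SE, adjusted p = 2.52e-12). With caffeine at 10000 µM it was -2.80 and -1.29 (difference 1.52 ± 0.22, SE, adjusted p = 3.93e-08). The vehicle level of Fasn was 67.7 ± 6.59 CPM (SD, n = 3) in batch 1 and 26.3 ± 2.57 CPM (SD, n = 6) in batch 2, and it enters every Fasn comparison of the batch. For WY14643 at 8 µM the L2FC of Scd was 4.71 and 4.97, that of Elovl6 4.60 and 5.43 and that of Acacb 1.91 and 1.84, and these differences did not pass.

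For 7 treatments the count of called genes changed by more than 1.5 times between the fit over both rats and a fit of 1 batch. With chloramphenicol at 450 µM 2 of the 9 genes were called over both rats, 2 in batch 1 alone, 5 in batch 2 alone and 6 in batch 2 against vehicle of the same plate, where 8.68%, 32.5% and 33.1% of all genes were. Thrsp was at an L2FC of 0.40 (adjusted p = 0.143) in batch 1 and -0.65 (adjusted p = 0.00236) in batch 2, and Fasn at -0.38 (adjusted p = 0.0327) in batch 1 and 0.51 (adjusted p = 0.00269) in batch 2. With isoniazid at 10000 µM 3 of the 9 genes were called over both rats, 6 in batch 1 alone, 2 in batch 2 alone and 2 in batch 2 against vehicle of the same plate, where 19.9%, 29.7% and 24.5% of all genes were. Srebf1 was at -1.14 (adjusted p = 1.44e-07) in batch 1 and -0.24 (adjusted p = 0.17) in batch 2, and Fasn at -1.01 (adjusted p = 8.60e-10) in batch 1 and 0.10 (adjusted p = 0.666) in batch 2. With doxorubicin at 0.08 µM 0 of the 9 genes were called over both rats, 0 in batch 1 alone, 2 in batch 2 alone and 2 in batch 2 against vehicle of the same plate, where 0.0589%, 9.75% and 12.4% of all genes were. Srebf1 was at -0.035 (adjusted p = 1) in batch 1 and 0.45 (adjusted p = 0.0102) in batch 2, and Fasn at -0.043 (adjusted p = 1) in batch 1 and 0.65 (adjusted p = 5.44e-04) in batch 2. With sulfasalazine at 4 µM 4 of the 9 genes were called over both rats, 1 in batch 1 alone, 4 in batch 2 alone and 4 in batch 2 against vehicle of the same plate, where 1.68%, 11.6% and 19.9% of all genes were. With ketoconazole at 0.6 µM 3 of the 9 genes were called over both rats, 2 in batch 1 alone, 2 in batch 2 alone and 1 in batch 2 against vehicle of the same plate, where 0.52%, 3.06% and 3.26% of all genes were. With diclofenac at 16 µM 1 of the 9 genes was called over both rats, 0 in batch 1 alone, 1 in batch 2 alone and 1 in batch 2 against vehicle of the same plate, where 0.137%, 0.814% and 0.54% of all genes were. With diclofenac at 400 µM 6 of the 9 genes were called over both rats, 5 in batch 1 alone, 5 in batch 2 alone and 3 in batch 2 against vehicle of the same plate, where 58.1%, 68.1% and 64.5% of all genes were.

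With wells added per rat, 43 of the 115 calls at the 28 treatments did not pass, though none of them turned its sign. Of the 17 calls of Srebf1, 10 did not pass, with diclofenac at 16 µM, diclofenac at 400 µM, indomethacin at 12 µM, isoniazid at 10000 µM, ketoconazole at 15 µM, naproxen at 80 µM, naproxen at 2000 µM, simvastatin at 60 µM, sulfasalazine at 4 µM and valproic acid at 10000 µM. Of the 17 calls of Thrsp, 4 did not pass, with indomethacin at 12 µM, ketoconazole at 0.6 µM, sulfasalazine at 4 µM and valproic acid at 400 µM. Of the 12 calls of Acly, 7 did not pass, with chloramphenicol at 450 µM, doxorubicin at 2 µM, indomethacin at 12 µM, ketoconazole at 0.6 µM, ranitidine at 4000 µM, simvastatin at 2.4 µM and WY14643 at 8 µM. Of the 10 calls of Me1, 3 did not pass, with diclofenac at 400 µM, ranitidine at 4000 µM and sulfasalazine at 100 µM. Of the 12 calls of Acaca, 6 did not pass, with chloramphenicol at 450 µM, doxorubicin at 2 µM, indomethacin at 12 µM, ketoconazole at 15 µM, sulfasalazine at 4 µM and sulfasalazine at 100 µM. Of the 9 calls of Acacb, 2 did not pass, with indomethacin at 300 µM and naproxen at 2000 µM. Of the 11 calls of Fasn, 6 did not pass, with indomethacin at 12 µM, indomethacin at 300 µM, simvastatin at 2.4 µM, sulfasalazine at 100 µM, WY14643 at 8 µM and WY14643 at 200 µM. Of the 18 calls of Scd, 5 did not pass, with caffeine at 10000 µM, diclofenac at 400 µM, indomethacin at 12 µM, ketoconazole at 0.6 µM and sulfasalazine at 4 µM. All calls of Elovl6 passed.

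**Figure D4:**
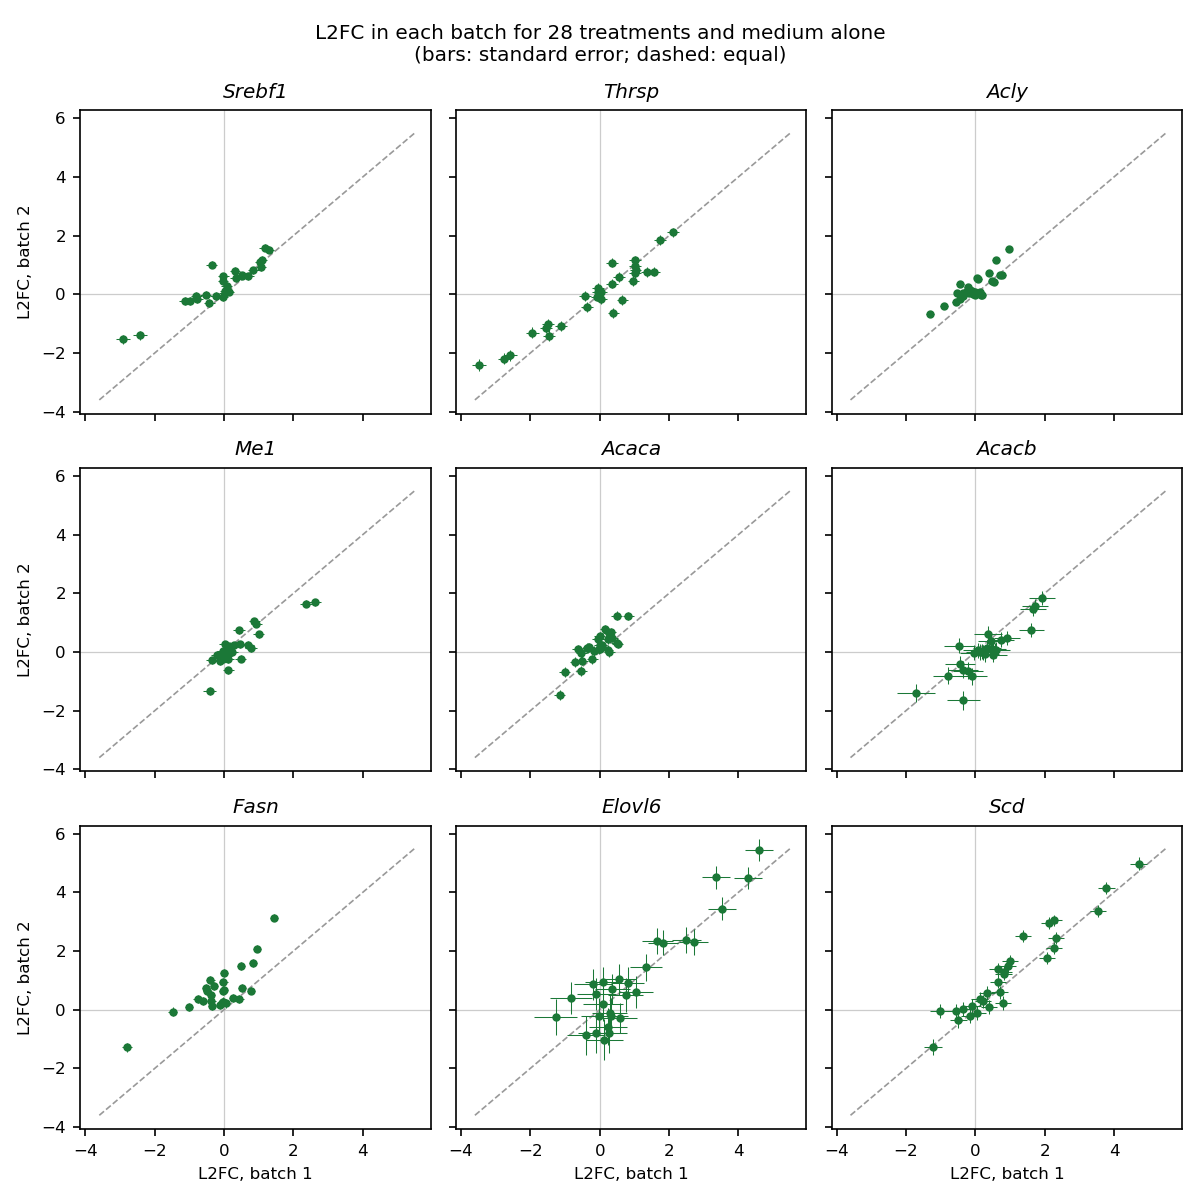
L2FC in batch 1 (x axis) and batch 2 (y axis), 1 point per treatment and for medium alone, with SE as bars, for each of the 9 genes. The dashed line marks equal values, and the points of Fasn lie mostly above it, as with ketoconazole at 15 µM (1.44 and 3.14). All points of a batch share its vehicle wells.

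In the ST assay, with 8 of the 9 genes and without Acacb, 106 of the WT calls at the 28 treatments could be looked at. All 106 had the same sign in ST, 92 were called there and 14 were not, and 7 pairs were called in ST alone. As both assays read the same lysates, this is no replicate of the cultures. Among those not called in ST were Srebf1 with simvastatin at 60 µM (-0.28, adjusted p = 0.217, -0.56 in WT) and Acaca with sulfasalazine at 4 µM (0.20, adjusted p = 0.482, 0.47 in WT). In ST the L2FC of Srebf1 with simvastatin at 2.4 µM (-0.62, adjusted p = 0.0094) and of Acaca with simvastatin at 60 µM (0.50, adjusted p = 0.00664) passed, which in WT did not (-0.43 and 0.15). L2FC of Fasn with ketoconazole at 15 µM was 2.44 in ST (2.42 in WT), that of Elovl6 with WY14643 at 8 µM was 5.14 (5.06), and that of Thrsp with diclofenac at 400 µM was -2.80 (-2.91). The ST probe that bears the symbol Scd is the near-silent one. The other is named SCD1 there and was added to Scd after seeing the data, which gave 4.80 with WY14643 at 8 µM (4.88 in WT).

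Other genes of the pathway were counted in the same fit, to be read against all genes, with 25.4% of pairs higher and 25.5% lower at high and 4.9% and 4.5% at low concentrations. Of 14 regulators of lipogenic transcription 12 were tested, and 32.7% of their pairs were higher and 21.4% lower at high concentrations, with 13.1% and 1.19% at low ones. Insig1, which retains SREBP in the endoplasmic reticulum, was higher in 19 treatments and lower in 2, and its L2FC was highest with ketoconazole at 15 µM (2.74 ± 0.14, SE). Usf2, a factor that binds E-boxes, was higher in 15 and lower in 1, and Rxra, the partner of LXR and PPARα, was higher in 10 and lower in 4, where its L2FC was down to -1.35 with acetaminophen at 10000 µM. Both had their highest L2FC with caffeine at 10000 µM (1.85 ± 0.088, SE, and 1.86 ± 0.10, SE), where 8 of the 9 synthesis genes fell. Of 12 genes of carbon and NADPH supply 10 were tested, and 36.4% of pairs were higher and 34.3% lower at high concentrations, with 12.1% and 4.29% at low ones. Slc25a1, the mitochondrial citrate carrier, had its highest L2FC with ketoconazole at 15 µM (1.28 ± 0.10, SE), and Idh1, a cytosolic source of NADPH, with WY14643 at 200 µM (1.69 ± 0.12, SE). Slc2a2, the glucose transporter of hepatocytes, was lower in 15 treatments and higher in 1, and its L2FC was lowest with acetaminophen at 10000 µM (-4.15 ± 0.19, SE).

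Of 12 genes of elongation and desaturation 8 were tested, and 47.3% of pairs were higher and 21.4% lower at high concentrations, with 14.3% and 2.68% at low ones. Fads1, a desaturase of polyunsaturated fatty acids, had its highest L2FC with ketoconazole at 15 µM (2.71 ± 0.15, SE) and its lowest with caffeine at 10000 µM (-3.77 ± 0.26, SE). Scd2, a paralog of Scd, was at 0.518 to 3.63 CPM in vehicle wells and had its highest L2FC with ketoconazole at 15 µM (4.02 ± 0.23, SE), and whether reads of these paralogs mix was not tested. Elovl7, another elongase, was higher in 6 treatments and lower in 7. Of 12 genes of acyl-CoA activation and glycerolipid synthesis 10 were tested, and 41.4% of pairs were higher and 21.4% lower at high concentrations, with 15.7% and 0.714% at low ones. Agpat2 and Agpat3, acyltransferases, had their highest L2FC with WY14643, at 8 µM (1.43 ± 0.12, SE) and 200 µM (2.08 ± 0.12, SE), and Acsl4, an acyl-CoA synthetase, with naproxen at 2000 µM (1.81 ± 0.14, SE).

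To describe likeness, the mean log2(CPM + 1) of each gene over the 28 treatments was correlated with that of the 10190 other genes tested, separately in batch 1 and batch 2 (Pearson's r given in that order). The treatments share plates and library preparation, and no p is given. Elovl6 and Scd were alike (0.80 and 0.81), as were Acly and Fasn (0.79 and 0.74) and Thrsp and Acaca (0.73 and 0.78), while r of Srebf1 and Acly was 0.034 and 0.0092. The genes most like Acly were Cyp51 (0.79 and 0.80), Fasn (0.79 and 0.74) and Idi1 (0.77 and 0.73), and those most like Fasn were Msmo1 (0.80 and 0.79), Fads1 (0.75 and 0.82) and Acly (0.79 and 0.74), of which Cyp51, Idi1 and Msmo1 code for enzymes of sterol synthesis. Those most like Acacb were Fads1 (0.87 and 0.83), Parvb (0.74 and 0.79) and Hmgcs1 (0.74 and 0.79), and those most like Me1 were Fam162a (0.76 and 0.75), Pdp2 (0.81 and 0.75) and Fabp3 (0.83 and 0.70). For Scd they were AC119580.1 (0.85 and 0.91), Plbd1 (0.82 and 0.86) and Acsl1 (0.80 and 0.81), and for Elovl6 LOC102549542 (0.98 and 0.98), AC119580.1 (0.85 and 0.82) and Plbd1 (0.80 and 0.81). For Srebf1 they were Xkr9 (0.82 and 0.84), G0s2 (0.85 and 0.81) and Galk1 (0.79 and 0.81), for Thrsp Gcnt4 (0.88 and 0.92), Csad (0.87 and 0.87) and Cbln3 (0.85 and 0.87), and for Acaca LOC301124 (0.81 and 0.87), Ndufs5 (0.80 and 0.87) and Marc2 (0.81 and 0.80).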

How the data were processed

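The lysate of each well was assayed by TempO-Seq with both the WT and the ST probes. Per the labels, the authors aligned reads to rn6 with STAR 2.5.3a, and they deposited whole-number read counts per probe and well, without normalization. Here the counts of probes with the same symbol were added, and CPM was computed from the read total of the well. Genes whose counts averaged 10 or more over all wells (10191 in WT, 1760 in ST) entered a quasi-likelihood fit in edgeR 4.0.16 (R 4.3.3), with TMM factors and with group and batch as terms. P-values were adjusted over all genes of a comparison, and SE is the size of L2FC over the root of F. Each batch was also fitted alone. ST wells held 558190 to 2210264 reads and WT wells 2289425 to 8975207, which limits the precision of low genes such as Elovl6 and Acacb, and reads after PCR are not independent molecules.

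The genes and lists were chosen with earlier results of these data known. Wells are printed for the called treatments with the highest and the lowest L2FC of a gene, if both batches had the same sign. Treatments with at least 5 of the 9 genes called are described in turn, and 3 genes are named per list (those called in the most treatments) and 3 per gene for likeness. Alternatives were RLE factors, read totals alone, no filter, DESeq2 1.42.0, an absolute L2FC of at least 1, wells added per rat, each batch alone, vehicle of the same plate in batch 2, the ST assay, and leaving out wells (18 fits that kept the dispersion trend of all wells). Tested on simulated data for naproxen at 2000 µM in WT, with 200 of 10191 genes changed, the fit made 192 calls, of which 6 were false. The simulated wells were independent, with the same spread for every gene and no difference between rats in response. In the data 53.8% of all genes were called for this treatment, so the simulation does not give the share of false calls here.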

Additional observations from a re-analysis of the deposited data

Results flagged for a closer look

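The 6 wells each of vehicle and of medium alone in batch 2 were examined for single wells apart from the rest, which made 18 groups over the 9 genes, and chance sets a well apart in about 1 of 20 groups. This was so in 1 group, where the lowest Acaca level in medium alone was 145 CPM and the other 5 wells were at 174 to 191 CPM.

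The L2FC of 27 called pairs of gene and treatment differed between the batches by the interaction test, as did that of 12 pairs not called. Batch 2 minus batch 1 for Fasn was 1.69 with ketoconazole at 15 µM, 1.52 with caffeine at 10000 µM, 1.42 with indomethacin at 300 µM, 1.40 with valproic acid at 10000 µM, 1.29 with WY14643 at 8 µM, 1.11 with ranitidine at 4000 µM, 1.01 with WY14643 at 200 µM, 1.00 with simvastatin at 2.4 µM, 0.77 with simvastatin at 60 µM and 0.69 with sulfasalazine at 100 µM. Batch 2 minus batch 1 for Acly was 0.65 with caffeine at 10000 µM, 0.57 with acetaminophen at 10000 µM, 0.57 with ketoconazole at 15 µM, 0.55 with WY14643 at 8 µM, 0.53 with valproic acid at 400 µM and 0.43 with ranitidine at 4000 µM. Batch 2 minus batch 1 for Srebf1 was 1.38 with caffeine at 10000 µM, 1.36 with ketoconazole at 15 µM, 1.02 with acetaminophen at 10000 µM, 0.91 with isoniazid at 10000 µM, 0.76 with simvastatin at 60 µM and 0.74 with valproic acid at 10000 µM. Batch 2 minus batch 1 for Me1 was -0.90 with caffeine at 10000 µM, -0.88 with WY14643 at 200 µM and -0.68 with WY14643 at 8 µM. It was 1.09 for Thrsp with diclofenac at 400 µM and 1.12 for Scd with naproxen at 2000 µM. Of these pairs, 4 had opposite signs in the batches.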

How the results depend on the processing

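With RLE factors, read totals alone, no filter or DESeq2, the counts of called pairs at high and at low concentrations, in medium alone and between concentrations stayed within 1.5 times the reported ones, and with RLE factors, read totals or DESeq2 none of the 121 calls turned its sign. Read totals alone moved the median L2FC of all genes by over 0.1 in 10 of 29 comparisons, from -0.43 (acetaminophen at 10000 µM) to 0.27 (valproic acid at 10000 µM). They kept 108 of the 121 calls, and over all genes they called 3.34% of pairs higher and 7.08% lower at low concentrations, and 4.69% and 10.2% in medium alone. An absolute L2FC of at least 1 left 27 higher and 15 lower pairs at high and 15 and 0 at low concentrations, 57 in all, 3 in medium alone and 32 between concentrations, where 6.3% and 9.3% of pairs over all genes were left at high and 1.1% and 0.688% at low ones, since it asks for larger changes, and ended the calls of Acly and Me1 with caffeine at 10000 µM and of Acaca with WY14643 at 8 µM. Wells added per rat, with 1 profile per treatment and rat, left 12 higher pairs at low concentrations, 72 in all and 2 in medium alone, where 74 of the 121 calls were kept and none turned its sign. The 1 lower pair at low concentrations became 3 in batch 1 alone, 2 in batch 2 alone and 2 with vehicle of the same plate, and 2 in the ST assay with or without probe SCD1; the cause was not tested. Against vehicle of the same plate in batch 2, Srebf1 with valproic acid at 10000 µM and Scd with caffeine at 10000 µM turned their sign. Leaving out wells gave 46 to 50 higher and 28 to 35 lower pairs at high and 31 to 34 and 1 to 2 at low concentrations, 108 to 118 in all and 6 in medium alone. The 1 lower pair became 2 without well 1 of each treatment in batch 1, and without vehicle well 2 of batch 1. With wells left out, the count of called genes of a single treatment changed by more than 1.5 times in 5 cases. It stayed within that in 433. The comparison of concentrations was not run with vehicle of the same plate, which it does not use, or with wells left out. For single wells no paired analysis was possible because the labels number no replicates within a rat, and well numbers here follow accession order. The rats themselves are a term of every fit over both batches, that with wells added per rat included.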
